A study of Mus musculus with 24 samples.

Results

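The 10 genes described here carry the calcium cycle of skeletal muscle contraction: the voltage sensor Cacna1s and a second voltage-gated calcium channel gene, Cacna1h, the release channel Ryr1 and its partner triadin (Trdn), the calsequestrins Casq1 and Casq2, the pumps Atp2a1 and Atp2a2, the pump regulator sarcolipin (Sln) and the cytosolic buffer parvalbumin (Pvalb). They were taken as a named set out of 21774 protein-coding genes. An H3K27ac peak was counted for a gene if it shared at least 1 bp with the gene body or with the 10 kb on either side of any of its RefSeq transcription starts (its window). Together the 10 windows spanned 905 kb.

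H3K27ac ChIP-Seq was performed on myofibers that had been released with collagenase from the quadriceps of C57BL/6 mice, which per the study's methods entered treatment at 10 weeks of age. Weekly prednisone–treated males and females had received 5 weekly intraperitoneal injections of prednisone at 1 mg/kg in a DMSO vehicle, with vehicle on the days between, and were harvested 4, 6 or 8 days after the last injection, while vehicle-treated males and females received DMSO alone. Per group there were 2 libraries of H3K27ac and 1 of input, 16 and 8 in all, and the deposited data hold 1 peak list for each of the 8 groups. The lists hold no values per library, so no spread between animals could be computed and no difference between groups could be tested. The intervals given below cover counting error only.

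The lists differed widely in size, and this bears on every count below. They held from 17482 peaks (males, day 4) to 123249 peaks (females, day 6), came from 7.52M H3K27ac tags (males, day 4) to 50.5M tags (males, day 6; M, 1000000 tags), and had between 5.39% (males, day 6) and 47.3% (females, day 6) of their tags in peaks. The lowest score of a listed peak was 7 in males at day 4 and 25 in males at day 6. Levels are therefore also given as ranks within a list. Most counts are set beside the share of all genes or peaks that met the same rule in the same list. Tag values below are scaled for depth only, so those of different lists are not directly comparable. Of 12 myofiber markers, between 3 (males, day 4) and 10 had a start in a peak. Mylpf, Pygm and Eno3 had one in 8 of 8 lists, but Myh4 in 3, Myh2 in 1 and Myh1 in 0. Of the other marker lists, the largest number of markers with a start in a peak was 4 of 5 for fibroblasts, 5 of 5 for endothelium, 1 of 6 for macrophages and leukocytes, 3 of 4 for smooth muscle and pericytes, 1 of 4 for adipocytes and 2 of 4 for satellite cells. Adgre1, Adipoq, Cidec, Csf1r, Itgam and Lum had no start in a peak in any list. The part of other cells in the values below was not tested, and in these lists fewer cells of a type and less acetylation per cell cannot be told apart.

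In skeletal muscle, depolarization of the transverse tubule moves the voltage sensor, which opens the ryanodine receptor of the adjoining sarcoplasmic reticulum. Calcium leaves the store, where calsequestrin binds it, and triggers contraction. The calcium pump returns it to the store and the muscle relaxes, with parvalbumin speeding relaxation in fast fibers. Atp2a1 and Casq1 encode the forms that dominate in fast fibers, and Atp2a2 and Casq2 those of slow fibers and heart. H3K27 acetylation marks active promoters and enhancers, and broad stretches of it are known at the genes that define a cell type.

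The sequences that the peaks share are shown before the values. Bases that lay in a peak of all 8 lists formed 6 intervals at 4 of the 10 genes, Cacna1s, Casq1, Ryr1 and Atp2a1, against 17.0% of all genes with such bases. At Casq1 the shared interval was chr1:172220153-172221545, 1393 bp long and 258 to 1650 bp upstream of the start. At Cacna1s it was chr1:136067317-136067817, 501 bp in an intron 14511 bp into the gene. At Ryr1 it was chr7:29124497-29125155, 659 bp over the start of the curated transcript. At Atp2a1 there were 3 intervals: chr7:126465039-126465692, 1936 to 2589 bp upstream of the outermost start, chr7:126461527-126462936, from 167 to 1576 bp downstream of it, and chr7:126460198-126460442, 245 bp wide and farther into the gene. The central 300 bases of the 3 intervals that lay outside exons follow, read from the mm10 assembly (GRCm38.p6) on the strand of the gene, with each E-box of the MyoD type (CAGCTG) in capitals. They are chr1:172220700-172220999 (minus strand, upstream of Casq1), chr1:136067418-136067717 (plus strand, intron of Cacna1s) and chr7:126465216-126465515 (minus strand, upstream of Atp2a1).
Casq1 upstream interval: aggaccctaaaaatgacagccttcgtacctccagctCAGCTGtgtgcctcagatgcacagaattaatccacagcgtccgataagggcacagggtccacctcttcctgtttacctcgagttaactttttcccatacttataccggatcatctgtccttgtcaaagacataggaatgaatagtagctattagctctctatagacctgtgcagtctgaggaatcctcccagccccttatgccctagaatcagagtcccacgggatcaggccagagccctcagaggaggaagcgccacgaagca
Cacna1s intronic interval: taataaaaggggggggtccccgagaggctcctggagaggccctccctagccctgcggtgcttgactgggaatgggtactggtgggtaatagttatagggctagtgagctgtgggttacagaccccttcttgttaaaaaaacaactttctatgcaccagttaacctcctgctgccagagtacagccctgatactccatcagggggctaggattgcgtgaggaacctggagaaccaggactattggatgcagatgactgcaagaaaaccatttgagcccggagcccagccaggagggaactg
Atp2a1 upstream interval: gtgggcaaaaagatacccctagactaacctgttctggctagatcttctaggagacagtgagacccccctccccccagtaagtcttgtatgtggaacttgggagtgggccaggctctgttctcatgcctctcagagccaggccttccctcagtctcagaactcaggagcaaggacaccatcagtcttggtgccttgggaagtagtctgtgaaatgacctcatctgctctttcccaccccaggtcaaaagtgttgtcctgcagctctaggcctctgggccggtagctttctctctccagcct

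Promoter sequence was at hand for 6 of the 10 genes (Cacna1s, Casq1, Ryr1, Casq2, Atp2a1 and, with 2 starts, Pvalb) in the RefSeq table of GRCm38.p6. The 250 bases before the start are shown for Cacna1s, Casq1 and Atp2a1, whose promoters held the E-box, and for Casq2 as the counterpart of Casq1, again with the E-box in capitals. They lie at chr1:136052561-136052810 (plus strand), chr1:172219896-172220145 (minus strand), chr7:126463074-126463323 (minus strand) and chr3:102086165-102086414 (plus strand). The Atp2a1 stretch includes the start of a predicted transcript that begins farther upstream.
Cacna1s promoter: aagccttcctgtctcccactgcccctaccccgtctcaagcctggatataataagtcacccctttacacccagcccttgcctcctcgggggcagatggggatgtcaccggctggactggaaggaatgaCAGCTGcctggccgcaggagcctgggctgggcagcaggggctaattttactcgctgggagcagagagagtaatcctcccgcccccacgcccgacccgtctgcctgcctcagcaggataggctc
Casq1 promoter: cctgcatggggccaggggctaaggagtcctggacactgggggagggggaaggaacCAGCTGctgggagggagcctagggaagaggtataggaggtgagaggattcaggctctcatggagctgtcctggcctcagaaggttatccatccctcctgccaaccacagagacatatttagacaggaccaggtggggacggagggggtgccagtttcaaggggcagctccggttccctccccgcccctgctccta
Atp2a1 promoter: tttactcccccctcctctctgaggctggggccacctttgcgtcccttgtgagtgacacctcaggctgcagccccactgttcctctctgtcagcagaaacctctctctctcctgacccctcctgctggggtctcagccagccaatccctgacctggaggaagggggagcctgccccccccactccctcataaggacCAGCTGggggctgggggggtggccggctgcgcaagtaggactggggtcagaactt
Casq2 promoter: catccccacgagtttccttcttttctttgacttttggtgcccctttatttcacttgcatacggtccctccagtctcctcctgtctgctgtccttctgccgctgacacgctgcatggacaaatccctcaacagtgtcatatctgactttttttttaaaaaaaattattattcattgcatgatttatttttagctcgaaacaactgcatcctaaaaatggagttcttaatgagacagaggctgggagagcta

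The motif CAGCTG, searched on both strands, was found in 3 of the 7 member promoters and in 13.0% of 32851 promoters of this length. It began 123 bases before the start at Cacna1s, 195 bases before it at Casq1 and 55 bases before it at Atp2a1. Of the 5 shared intervals of at least 300 bp, 2 held it in their central 300 bases (Casq1 and the downstream interval of Atp2a1), against 14.7% of 2632 such intervals in the genome. The glucocorticoid receptor consensus used by the study (ACANNNTGT, both strands) was in 0 of the 7 promoters and 5.84% of all promoters, and in 0 of the 5 intervals and 3.65% of all intervals. The MEF2 site in its narrow form (CTA, 4 bases of A or T, TAG; 0.508% of promoters), the CArG box (1.47%) and the ERR element TCAAGGTCA (0.387%) were in 0 of the 7 promoters and 0 of the 5 intervals. Among all intervals the last 3 were in 0.646%, 1.52% and 0.95%. A wider form of the MEF2 site, with C or T as the first base and A or G as the last, was searched after the data were seen. It was in 2 of the 7 promoters (Casq2 and Pvalb) and 2.92% of all promoters, and in 0 of the 5 intervals and 1.86% of all intervals. At Casq2 it began 69 bases before the start, and at one of the Pvalb starts 180 bases before it. With so few windows these counts are a description of the sequences.

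The windows of the 10 genes held 80, 16, 29 and 26 peaks in the male lists (vehicle, days 4, 6 and 8) and 32, 80, 114 and 92 in the female lists. These were 0.0913%, 0.0915%, 0.0901% and 0.127% of the peaks in the male lists and 0.0823%, 0.119%, 0.0925% and 0.113% of those in the female lists, so that the number of peaks at these genes followed the length of the list. With every list reduced to its 17482 peaks of highest score, vehicle-treated males had 12 member peaks and males at day 4 had 16, the reverse of the order above, while the female lists had 16, 25, 29 and 18. The score need not follow the tags of a peak. In vehicle-treated males the Atp2a1 start peak ranked 41 of 87600 by tags but scored 10, where the lowest score was 9, and was left out. The part of the score in the counts at equal length was not tested. Of all 469 member peaks in the 8 lists, 46 covered a start, 332 were centered in an intron, 49 in an exon and 42 outside the gene.

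Members with a peak in their window were 9 of 10 in vehicle-treated males and 5, 8 and 8 at days 4, 6 and 8. In females they were 6 of 10 with vehicle and 10, 9 and 9 at days 4, 6 and 8. Over all genes the shares with a peak were 75.5%, 46.4%, 50.9% and 49.3% in the male lists and 54.8%, 71.6%, 78.7% and 73.6% in the female lists, in the same order. A longer gene catches more peaks, and the windows ran from about 20 kb (Casq1, Sln) to 403 kb (Trdn). Ryr1, Cacna1s, Casq1, Atp2a1 and Pvalb, 5 of the 10 members, had a peak in all 8 lists, against 29.4% of all genes. Trdn had peaks in 7 lists, Atp2a2 in 6, Cacna1h and Casq2 in 5, and Sln in 1. With the male day 4 list left out, the smallest, 6 members had a peak in each of the other 7 lists. The share of all genes over those 7 lists was not computed.

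**Figure D1:**
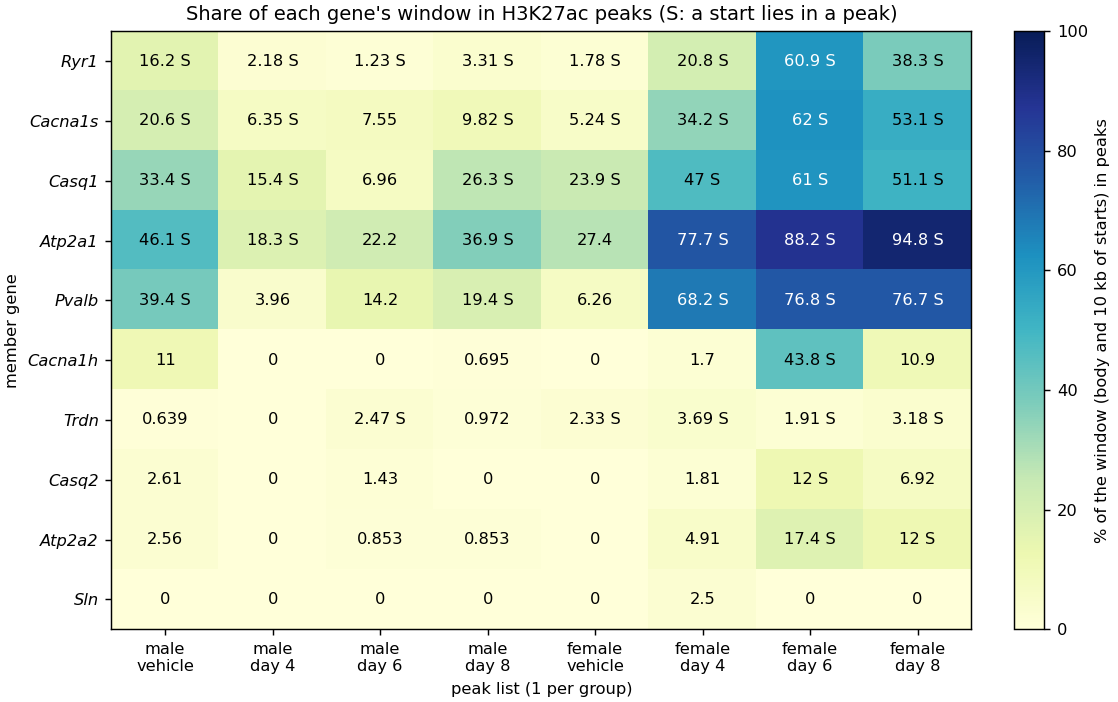
Share of each gene's window (gene body and 10 kb around each start) that lay in H3K27ac peaks, as a percent, for the 10 genes (rows) in the 8 lists (columns); S marks a list in which a start of the gene lay in a peak. Atp2a1 had the highest share of the 10 genes in each of the 8 lists, up to 94.8% in females at day 8, and Sln was at 0 in 7 lists.

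A start lay in a peak for 5, 4, 2 and 5 members in the male lists (vehicle, days 4, 6 and 8) and for 4, 6, 9 and 7 members in the female lists. The shares of all genes were 42.0%, 21.9%, 21.5% and 27% in males and 17.0%, 46.7%, 62.8% and 56.5% in females. The members' count was thus above the share of all genes in 7 lists and below it in males at day 6. Only Ryr1 of the 10 had a start in a peak in all 8 lists, as did 7.91% of all genes. Some of the missing starts were missed narrowly. In males at day 6 the Atp2a1 peak ended 1 bp from the curated start, the Pvalb peak 80 bp from a start and the Casq1 peak 258 bp from the start. A peak within 500 bp of a start was present for 5 members in that list and for 8 in males at day 8. The share of all genes within 500 bp was not computed, so these counts have no background. At equal list length the counts of starts in a peak were 2 in vehicle-treated males and 5 and 4 in females at days 6 and 8. The shares of all genes above are for the full lists, and none was computed at equal length.

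The voltage sensor gene Cacna1s had peaks in every list, at 16, 6, 5 and 5 in the male lists and 5, 16, 18 and 11 in the female lists. Its start lay in a peak in all lists but that of males at day 6, a pattern that it shared with 329 other genes, Casq1 among them. The region with a peak in all 8 lists was not the promoter but the intronic stretch chr1:136057155-136073873. That stretch held separate peaks in the male lists and in vehicle-treated females, and a single peak of 16424 bp in females at day 6 and of 16393 bp in females at day 8. The day 6 peak had 610.0 normalized tags (tags scaled to 10M tags per list; 95% Poisson interval 583 to 638) and ranked 502 of 123249 peaks by tags. By normalized tags per kb of window, 7.33%, 8.68%, 12.6% and 7.54% of genes stood above Cacna1s in the male lists and 10.7%, 4.8%, 9.38% and 5.67% in the female lists. The share of its window in peaks ran from 5.24% (females, vehicle) to 62.0% (females, day 6). A start of Ascl5 lies in the window of Cacna1s, and 2 of the 82 Cacna1s peaks covered it.

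Cacna1h, which encodes a T-type calcium channel, differed from Cacna1s. It had 13, 0, 0 and 1 peaks in the male lists and 0, 2, 20 and 13 in the female lists, and its start lay in a peak only in females at day 6, as for 1378 other genes. Its highest peak was 5733 bp wide, had 91.8 normalized tags and lay 30.03 kb into the gene in females at day 6, where it ranked 10835 of 123249. In the 5 lists with a peak at both genes, Cacna1s had between 2.15 (males, vehicle) and 26.9 times (females, day 4) the normalized tags per kb of window of Cacna1h, with a median of 9.0.

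Ryr1, the calcium release channel of the sarcoplasmic reticulum, had 25, 3, 2 and 4 peaks in the male lists and 4, 26, 36 and 31 in the female lists. The peak at its start was the highest Ryr1 peak in every list, with 45.9, 62.5, 23.7 and 44.6 normalized tags in males and 16.4, 81.7, 189.4 and 321.1 in females. The start peak ran in width from 843 bp in vehicle-treated females to 13090 bp in females at day 8. A predicted internal start also lay in a peak, in vehicle-treated males and in females at days 6 and 8. In tags per kb of its long window (132 kb) Ryr1 was less prominent, with 15.1% (males, vehicle) to 36.5% of genes (males, day 6) above it. Of its 38 regions, merged over all lists and read from peaks in its window, 19 were found only in females and 2 only in males, against 57.1% and 24.0% of all 250021 merged regions of the genome. Of the 38, 6 were found in females at days 4, 6 and 8 and in no other list, as were 1.88% of all regions.

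Trdn, which encodes the junctional protein triadin, spans 393 kb and went against the size of the lists. It had 4, 0, 10 and 7 peaks in the male lists and 16, 16, 11 and 18 in the female lists, so that vehicle-treated females had 4 times as many as vehicle-treated males, whose list was the longer. Its start lay in a peak in males at day 6 and in all 4 female lists, a pattern found in 29 other genes (0.133% of genes). The start peak in males at day 6 was 5133 bp wide with 57.0 normalized tags (50.6 to 63.9) and ranked 598 of 32188 peaks. In females at day 4 the start peak had 58.6 normalized tags, and in males at day 8 a peak of 755 bp lay 290 bp from the start. Of the 82 Trdn peaks, 17 had no input tag at all, 8 of them in vehicle-treated females, where 29.0% of all peaks had none. The fold over input of such peaks rests on a stand-in value and is not given.

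The calsequestrins, which buffer calcium in the store, split by form. Casq1 had a peak over or next to its start in every list, with 118.6, 87.8, 31.5 and 93.5 normalized tags in the male lists and 80.3, 128.7, 362.1 and 252.6 in the female lists. The peak was widest, at 5743 bp, in females at day 4 and narrowest, at 1392 bp, in males at day 6, where it stopped short of the start. Within its list the peak ranked 105 of 20499 in males at day 8 and 173 of 38861 in vehicle-treated females. By tags per kb of window, 0.648% (males, day 8) to 8.23% (males, day 6) of genes stood above Casq1. Casq2 had 3, 0, 2 and 0 peaks in the male lists and 0, 2, 10 and 6 in the female lists, with a start in a peak in females at day 6 alone. Its highest peak in females lay in an intron about 13 kb into the gene at days 4, 6 and 8 (chr3:102098319-102100649 when merged) and in no other list. In the 5 lists with a peak at both genes, Casq1 had 9.96 (males, day 6) to 41.8 times (females, day 4) the tags per kb of Casq2, with a median of 16.4.

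Atp2a1, the calcium pump of fast fibers, was the highest of the 10 genes by normalized tags per kb of window in each of the 8 lists. That measure favors a short window, here 27.2 kb. Undivided by length, Atp2a1 had the most tags in males at days 4, 6 and 8 and in females at day 8. It was exceeded by Ryr1 (501) and Cacna1s (442 against 360) in vehicle-treated males and by Trdn (168 against 126) in vehicle-treated females. In females Cacna1s exceeded it at day 4 (423 against 398), and Ryr1 and Cacna1s did at day 6. It had 13.2, 6.44, 4.21 and 6.75 tags per kb in the male lists and 4.64, 14.6, 46.6 and 40.2 in the female lists. The share of genes above it was 0.693%, 0.671%, 1.09% and 0.184% in males and 0.753%, 0.142%, 0.542% and 0.0827% in females, the last being rank 19 of 21774. Its highest peak was 10065 bp wide in vehicle-treated males and 8346 bp in males at day 8, and 13850, 15114 and 18227 bp in females at days 4, 6 and 8. In vehicle-treated females and in males at days 4 and 6 the same stretch was broken into separate peaks of at most 3076 bp. The widest one, in females at day 8, held 918.9 normalized tags (889 to 949) and ranked 52 of 81696. Sh2b1 has a start inside the window of Atp2a1, and 2 of the 33 Atp2a1 peaks covered it.

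Atp2a2, the pump of slow fibers and heart, had 3, 0, 1 and 1 peaks in the male lists and 0, 4, 8 and 5 in the female lists. Its start lay in a peak in females at days 6 and 8, with 72.8 and 41.0 normalized tags, as was also the case for Atp2a3 and Camk2g among the other genes of the pathway and for 1254 other genes in all. At its best rank, in males at day 8, 41.6% of genes stood above it, and this rested on 1 peak of 500 bp with 25 tags. In the 6 lists with a peak at both pumps, Atp2a1 had 12.5 (females, day 6) to 50.9 times (males, day 8) the tags per kb of Atp2a2, with a median of 27.6. The windows were 27.2 kb at Atp2a1 and 58.7 kb at Atp2a2, so length enters these ratios too. Undivided by length, Atp2a1 still had more tags in each of these lists, such as 1270 against 219 in females at day 6. In vehicle-treated females and in males at day 4 there was no peak at Atp2a2 at all. Sln, the small inhibitor of the pump, had a single peak in the 8 lists, 500 bp wide with 5.92 normalized tags from 29 tags, over its 3′ end in females at day 4.

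Pvalb, the calcium buffer of fast fibers, had 7, 2, 4 and 4 peaks in the male lists and 1, 4, 2 and 2 in the female lists. The share of its window in peaks was 39.4%, 3.96%, 14.2% and 19.4% in males and 6.26%, 68.2%, 76.8% and 76.7% in females. The female lists of days 6 and 8 thus had fewer Pvalb peaks than that of day 4 but more of the window in peaks. The 2 peaks of females at day 6 included a peak of 19754 bp across the whole gene with 737.7 normalized tags (708 to 769), and females at day 8 had a similar peak of 19213 bp with 543.5. In vehicle-treated females there was a single peak of 1582 bp with 26.5 tags, 115 bp short of the outer start. The share of genes above Pvalb by tags per kb was 13.9% in vehicle-treated females and 0.648%, 3.83% and 1.76% at days 4, 6 and 8. In males it was 1.37% with vehicle and 11.9%, 3.99% and 2.21% at days 4, 6 and 8. Pvalb thus stood nearer the top at day 4 than with vehicle in females and farther from it in males. Each of these values comes from 1 list, and the male day 4 peaks held only 19 tags at most.

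**Figure D2:**
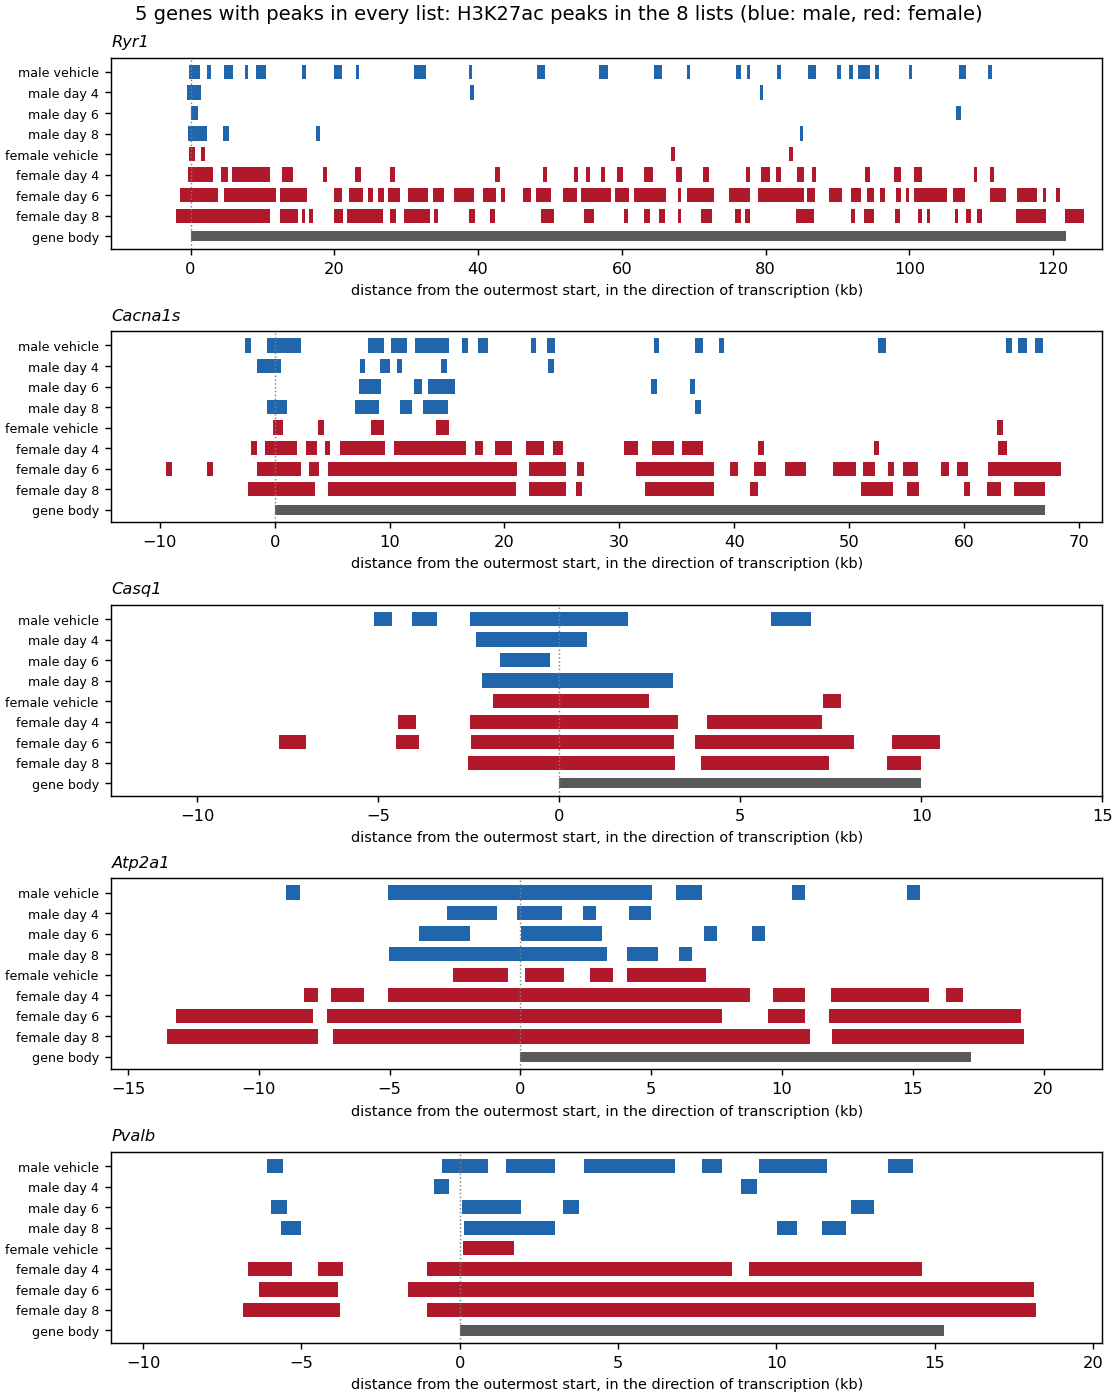
Position of every H3K27ac peak (bars) at Ryr1, Cacna1s, Casq1, Atp2a1 and Pvalb in the 8 lists (rows; blue, male; red, female), by distance in kb from the outermost start in the direction of transcription, with the gene body in gray. In females at days 6 and 8 the peaks at Atp2a1 and Pvalb joined into stretches of 15114 to 19754 bp, whereas those of vehicle-treated females were at most 3021 bp wide there.

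**Figure D3:**
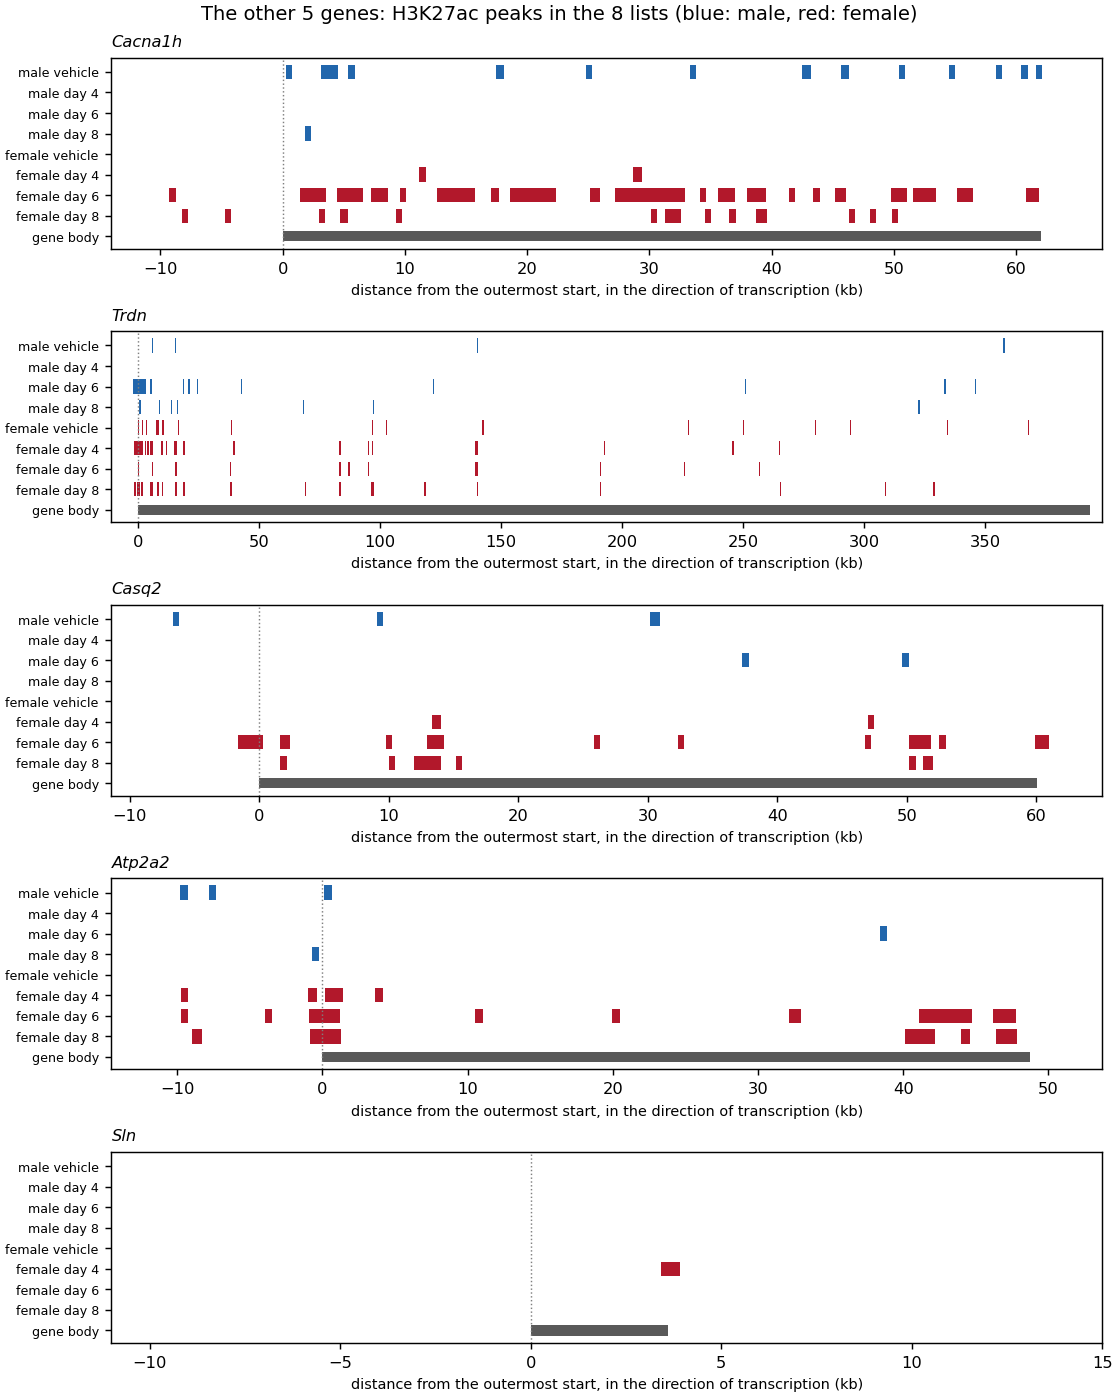
The same plot for Cacna1h, Trdn, Casq2, Atp2a2 and Sln (x axis, distance in kb from the outermost start; bars, peaks; rows, the 8 lists). The start of Atp2a2 was covered only in females at days 6 and 8, Sln held 1 peak in all, and males at day 4 had no peak at any of these 5 genes.

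**Figure D4:**
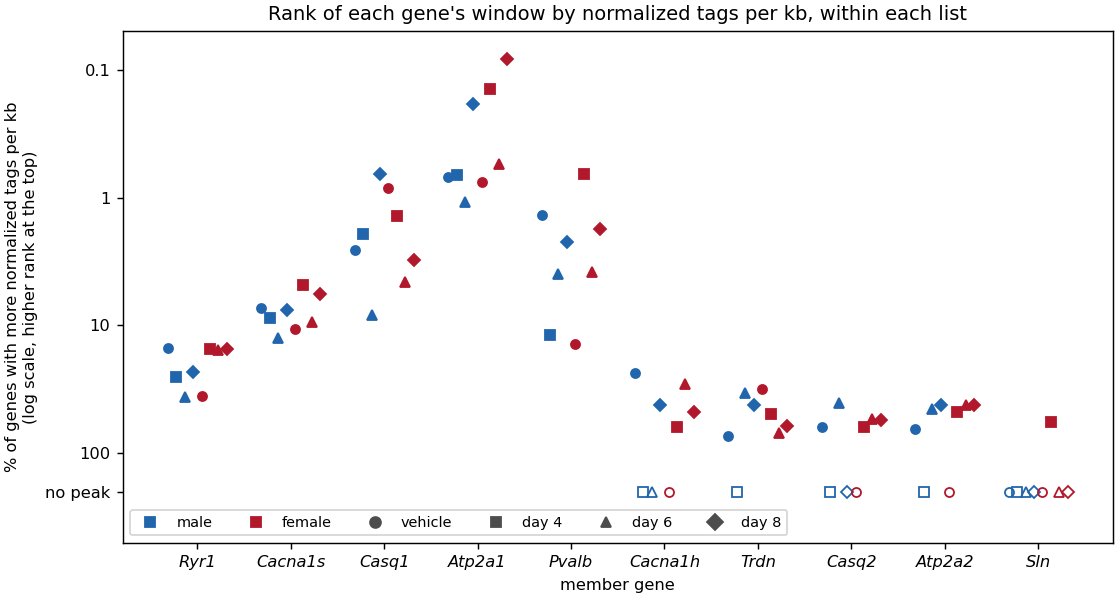
Rank of each gene within each list: the percent of 21774 genes with more normalized tags per kb of window (log axis, best ranks at the top), with color for sex, symbol for treatment, and open symbols where the gene had no peak. Atp2a1 stayed between 0.0827% and 1.09%, and Atp2a2 and Casq2 never ranked better than 41.6% and 40.6%.

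Broad peaks of at least 5 kb were found at 1, 0, 1 and 2 members in the male lists and at 0, 5, 6 and 5 in the female lists. Over all genes the shares were 1.35%, 0.106%, 0.56% and 0.335% in males and 0.239%, 5.25%, 17.2% and 11.8% in females. The members with a broad peak were Atp2a1 in vehicle-treated males, Trdn in males at day 6, and Casq1 and Atp2a1 in males at day 8. In females they were Ryr1, Cacna1s, Casq1, Atp2a1 and Pvalb at days 4, 6 and 8, with Cacna1h added at day 6.

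The markers of slow fibers are set beside the slow forms. Of 6 slow myofiber markers (Myh7, Tnnt1, Tnni1, Tnnc1, Myl2 and Myl3), starts lay in a peak in females at day 6 (4 of 6) and day 8 (2 of 6) and in 0 of 6 in the other 6 lists. Their summed normalized tags per kb were 12.1, 5.59, 3.09 and 1.29 in the male lists and 1.6, 6.47, 51.7 and 22.8 in the female lists. In males this sum was higher at day 4 than at day 6, although Atp2a2 and Casq2 had peaks at day 6 and none at day 4. In both lists a single marker gave most of the sum, 4.59 at day 4 and 2.81 at day 6. The medians of the 6 markers were 0.199 and 0. The 4 heart markers summed to 7.19, 0, 0 and 0 in males and 0, 0.768, 17.0 and 4.97 in females. The 12 myofiber markers summed to 28.4 (males, day 4) to 320 (females, day 6), and the endothelial markers also summed highest in females at day 6, at 65.0, so that all these lists were highest in the longest peak list. The part of list length in the values of Atp2a2, Casq2 and Cacna1h was not tested.

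Of 42 other genes of excitation-contraction coupling, starts lay in a peak for 32, 13, 20 and 24 in the male lists. In the female lists the counts were 15, 31, 35 and 35. These were 76.2%, 31.0%, 47.6% and 57.1% of the 42 in males and 35.7%, 73.8%, 83.3% and 83.3% in females. The shares of all genes were 42.0%, 21.9%, 21.5% and 27% in males and 17.0%, 46.7%, 62.8% and 56.5% in females. Starts in all 8 lists were found for 7 of the 42, among them the calcium channel subunit gene Cacnb1, the calmodulin genes Calm2 and Calm3, the kinase gene Camk2d, the sodium channel gene Scn4a and the store sensor Stim1. Of all genes, 7.91% had a start in a peak in all 8 lists. Ryr2 and Ryr3 had a start in a peak in no list, and neither did Sln. Cacna1c, Mtm1 and Pln had one in 1 list each. That of Pln, the pump inhibitor of slow fibers and heart, was the list of males at day 6. The pattern of Atp2a1 was shared with Slc8a3 and Sypl2, that of Pvalb with Cacna2d1, Cav3 and Itpr2, and that of Cacna1h and Casq2 with Mtm1. No gene of the 42 had the pattern of Trdn or that of Cacna1s and Casq1. These lists were compiled with earlier results of these data known and are no independent support.

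**Figure D5:**
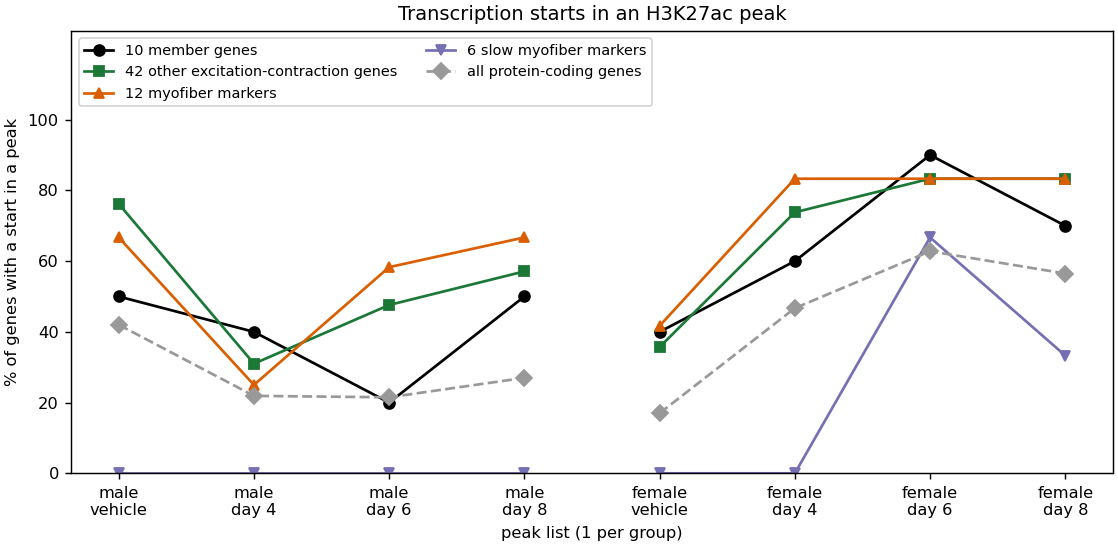
Percent of genes with a transcription start in an H3K27ac peak in each list (x axis, lists; lines join lists of one sex) for the 10 calcium handling genes, the 42 other excitation-contraction genes, 12 myofiber markers, 6 slow myofiber markers and all protein-coding genes. The slow myofiber markers were at 0 in 6 lists and at 66.7% and 33.3% in females at days 6 and 8, and all genes ran from 17.0% to 62.8%.

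The study's design asks which enhancers were present 4 days after prednisone but not with vehicle, and for how long. Of the day 4 peaks at the 10 genes, 3 of 16 (18.8%) had no vehicle peak in males and 69 of 80 (86.2%) in females. Among all day 4 peaks the shares were 45.4% in males and 81.9% in females. The 3 male peaks were 500 bp each, at Cacna1s (chr1:136060199-136060699), Pvalb (chr15:78197018-78197518) and Ryr1 (chr7:29045489-29045989). That at Cacna1s was also covered at days 6 and 8, and those at Pvalb and Ryr1 at neither. This left 1 of 3 present at day 8, against 5.01% of all such male peaks. The 69 female peaks included 25 at Ryr1, 13 at Trdn, 12 at Cacna1s and 5 at Atp2a1. Peaks were still present for 55 of the 69 (79.7%) at day 6 and for 45 (65.2%) at day 8, against 50.3% and 43.6% of all such female peaks. At day 8 they were covered for 5 of 5 peaks at Atp2a1, 3 of 3 at Pvalb, 10 of 12 at Cacna1s, 17 of 25 at Ryr1 and 6 of 13 at Trdn. The wide peaks of the later female lists could cover several day 4 peaks at once. With all lists brought to the 17482 peaks of highest score, 13 of 16 male peaks (81.2%) and 19 of 25 female peaks (76.0%) had no vehicle peak, against 69.4% and 71.3% of all peaks, and 9 and 6 of these were present at day 8. The male share with no vehicle peak thus moved from below to above that of all peaks. Of those peaks the share present at day 8 was 69.2% in males, against 20.1% of all such male peaks, and 31.6% in females, against 37.3%, so that the female share moved from above to below that of all peaks.

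Seen from vehicle, of 80 peaks at these genes in vehicle-treated males, 10 (12.5%), 11 (13.8%) and 14 (17.5%) were covered at days 4, 6 and 8, near the 10.3%, 13.1% and 12.1% of all male vehicle peaks. Of 32 peaks in vehicle-treated females, 16 (50.0%), 17 (53.1%) and 19 (59.4%) were covered, and 36.6%, 39.6% and 41.0% of all female vehicle peaks. Merged over the 8 lists, the 10 genes held 168 regions, of which 89 were found in a single list, 95 only in females, 27 only in males and 5 in all 8 lists, a list being counted through its peaks in the window. Over all merged regions the shares were 70.5%, 57.1%, 24.0% and 1.7%, and the female lists held more peaks. The 5 regions in all 8 lists were 1 each at Atp2a1 (chr7:126452047-126470497), Casq1 (chr1:172216625-172222429), Pvalb (chr15:78188208-78208031), Ryr1 (chr7:29113287-29127140) and the Cacna1s intron named above. Only 1 such region was left at equal list length, and 3 with a fold over input of at least 4. No region was found in all lists of one sex and no list of the other, or in all 6 prednisone lists and neither vehicle list.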

How the data were processed

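The authors isolated quadriceps myofibers, immunoprecipitated H3K27ac chromatin, aligned reads to mm10 with Bowtie2 (version 2.2.6 per the labels' processing notes) and called peaks with HOMER findPeaks in histone style against input at a minimum fold of 2. Whether the 2 libraries of each group were merged before or after peak calling is not given in the sources used here. In the deposited lists the normalized tag count is a signal scaled to 10M tags (M, 1000000). The findPeaks score in the deposited lists is a score that the authors' caller, HOMER findPeaks, computed for each peak. It is not a rank, since peaks of the same list can share a score. The lowest score was 7 in males at day 4 (7.52M tags) and 25 in males at day 6 (50.5M tags). The fold in the deposited lists is a ratio of H3K27ac to input tags. Total tags in the deposited lists are whole counts in 2 lists and scaled to the input in the other 6. The caller's own p-value and clonal columns were deposited too and were not used.

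From these values, depth was read from the step between low normalized tags in 6 lists and, in males at day 4 and females at day 6, from the total tags as counted over the normalized tags (in each list 100% of values under 10 were whole tags within 0.0051). Windows came from RefSeq on GRCm38.p6 (92681 transcripts, curated and predicted), and the deposited coordinates were read as 1-based. Tags of a peak partly outside a window were prorated by length, and genes were ranked by summed tags per kb. The 10 genes, the list of 42 pathway genes and the marker lists were chosen with earlier results of these data known. Some genes of these lists are not reported here. All members were named; of each other list, up to 6 genes with a start in the most or fewest lists, ties alphabetically, pathway genes that share the pattern of a member, and regions in all 8 lists, all of 1 sex or all of prednisone. Tag intervals are 95% exact Poisson intervals. No test between groups was made. Overlaps were checked on simulated peaks against bedtools 2.31.1, and scripts used Python 3.11.15, pandas 2.3.3 and samtools 1.23.1. Alternatives were lists of equal length, a fold of at least 4, other windows and other overlaps.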

Additional observations from a re-analysis of the deposited data

Results flagged for a closer look

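From vehicle to day 4 the values at the 10 genes went in opposite directions in males and females. Peaks fell by 64 in males and were 48 more in females. The kb of the windows in peaks fell by 63.4 in males and was 92.4 more in females. Genes with a peak fell by 4 in males and were 4 more in females, and genes with a start in a peak fell by 1 in males and were 2 more in females. Each value compares 1 list with 1 list, the difference between the sexes was not tested, and the whole lists went the same ways, from 87600 to 17482 peaks in males and from 38861 to 67503 in females. At equal list length the male peak count was 12 with vehicle and 16 at day 4, and the female count 16 and 25, so the male direction turned. That reduction went by score, which need not follow the tags of a peak.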

How the results depend on the processing

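Of 149 values recomputed, 115 stayed within 1.5 times the value reported and 34 did not. With each list reduced to 17482 peaks by score, member peaks were 12 in vehicle-treated males, 18 in males at day 6, and 16, 25, 29 and 18 in the female lists. Genes with a start in a peak were 2 in vehicle-treated males and 5 and 4 in females at days 6 and 8, and 1 region remained in all 8 lists. Day 4 peaks with no vehicle peak were 13 in males and 19 in females, of which 9 and 6 were present at day 8. With a fold of at least 4, vehicle-treated males had 48 member peaks, males at days 6 and 8 had 1 and 2 genes with a start in a peak, 3 regions were in all 8 lists, males had 5 day 4 peaks with no vehicle peak, and 3 male and 29 female ones were present at day 8. With the gene body left out, member peaks were 33, 12 and 17 in males (vehicle, days 6 and 8) and 17, 34, 37 and 32 in females, and 26 female day 4 peaks had no vehicle peak, 18 of them present at day 8. With 50% of the peak covered, males had 5 such peaks and 0 regions had 50% of their length in peaks in each of the 8 lists. Within 500 bp of a start, 5 and 8 members were counted in males at days 6 and 8. Shares of all genes were not computed under these alternatives, but shares of all day 4 peaks were. With the gene body left out, 76.5% of female member peaks had no vehicle peak. The share of all female peaks was 81.9%, so the member share moved from above to below it. With a fold of at least 4, 31.2% of male member peaks had no vehicle peak, against 59.7% of all male peaks. Present at day 8 were 60.0% of such male (3 of 5) and 58.0% of such female member peaks, against 8.11% and 39.5% of all. The 5 kb window, curated transcripts, 50% of the peak inside the window and, added after seeing the data, peaks with an input tag and the 7 lists without males at day 4 moved no value past 1.5 times. The causes were not tested. No paired analysis was possible because the lists hold no values per library, and leaving out a replicate could not be run for the same reason. A peak that is missing from a list was not called there. Missing acetylation and a limit of the depth or of the caller cannot be told apart. Depth was 7.52M tags in males at day 4 and 50.5M in males at day 6.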
